A study of Mus musculus with 6 samples.

Results

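Small nucleolar RNAs and the genes that carry them were examined in C2C12 myotubes, the contractile cells that this mouse myoblast line forms when serum is lowered. The set held every gene that the array's annotation lists under a symbol starting with Snord, Snora, Scarna or Snhg, plus Gas5, counting probe sets with exactly 1 symbol. That gave 43 of the 20416 genes measured: 21 Snord, 16 Snora, 2 Scarna and 3 Snhg genes and Gas5. Insulin at 100 nM was present for 48 h in 3 cultures, and 3 untreated cultures served as controls. All were myotubes between days 4 and 7 of differentiation in 2% horse serum, after growth in 10% fetal bovine serum, with the medium renewed every 24 h. One array was run per culture, called a biological replicate in the labels, and the labels describe the insulin exposure as a way to make the cells insulin resistant. A myotube is a fused cell of a cell line and not a muscle fibre, and the cultures were not sorted, so fewer cells of a type and less RNA per cell cannot be told apart.

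Small nucleolar RNAs guide enzymes to ribosomal RNA. C/D box RNAs (Snord) direct methylation of ribose, H/ACA box RNAs (Snora) direct conversion of uridine to pseudouridine, and the related Scarna RNAs act on spliceosomal RNAs in Cajal bodies. In mammals most of them are cut out of the introns of a host gene after splicing. Many hosts encode ribosomal proteins or other parts of the translation machinery. Others, the Snhg genes and Gas5, make spliced transcripts with no known protein product, several of which are short-lived because nonsense-mediated decay removes them. Host transcripts of both kinds often begin with a run of pyrimidines, the terminal oligopyrimidine (TOP) start, which places their translation under the control of the growth kinase mTOR.

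The start regions of the 4 host genes are shown because this run lies there. RefSeq holds 5 starts for them in build GRCm38.p6, and 50 bases before and 50 after each start are printed. Capitals mark TATA found between 40 and 21 bases before the start, on the printed strand, and a C followed by at least 4 letters that are each C or T, beginning exactly at the start.
Gas5, upstream start, chr1:161034551-161034650, plus strand: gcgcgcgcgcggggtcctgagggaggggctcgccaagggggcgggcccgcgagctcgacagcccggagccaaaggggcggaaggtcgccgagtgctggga
Gas5, downstream start, chr1:161035116-161035215, plus strand: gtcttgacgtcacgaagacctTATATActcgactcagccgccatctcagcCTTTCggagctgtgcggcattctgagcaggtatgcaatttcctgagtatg
Snhg1, chr19:8723437-8723536, plus strand: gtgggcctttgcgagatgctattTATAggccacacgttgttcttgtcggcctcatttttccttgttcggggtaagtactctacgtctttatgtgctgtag
Snhg7, chr2:26640195-26640294, minus strand: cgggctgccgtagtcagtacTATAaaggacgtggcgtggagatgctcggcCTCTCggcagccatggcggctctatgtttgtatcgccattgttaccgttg
Snhg11, chr2:158375663-158375762, plus strand: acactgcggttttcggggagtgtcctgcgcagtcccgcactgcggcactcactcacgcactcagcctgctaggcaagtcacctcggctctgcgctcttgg
Gas5's downstream start and Snhg7 held both features, which 0.131% of the 32851 RefSeq starts did. Snhg1 held TATA, as 5.34% of starts did, and did not meet the rule for the pyrimidine run. The pyrimidine feature alone was present at 2.51% of starts. The letters CACGTG, the same on both strands and the core of sites bound by MYC, occurred in none of the 5 windows of 300 bases, against 7.15% of all starts. These matches describe the windows only.

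Most of the small nucleolar RNA genes lay higher after insulin, by small amounts, and 6 of the 43 passed the test. Snord52, Snord16a, Snord49b, Snord33, Snora3 and Snhg1 rose, by 1.24-fold to 1.74-fold. None fell. Genes were compared with limma's moderated test on the deposited log2 values, with Benjamini-Hochberg adjusted p-values over all 20416 genes and a threshold of 0.05, under which 5.12% of all genes were higher and 3.09% lower, or 8.21% in both directions. The 0 falls compare with 1 member lower and 14 members higher at an unadjusted p under 0.05, and with 9.99% of all genes lower and 12.3% higher at that limit. The log2 change was above 0 for 32 of 43 members, against 48.0% of all genes, and the median change was 0.17, against -0.01 for all genes. On 17 members all 3 insulin arrays lay above all 3 controls, as for 15.5% of all genes, and on 1 member all lay below, as for 12.9%. Genes averaging under 7.05, the 30th percentile of all genes, were called dim. Of the 18 dim members 2 rose, Snhg1 and Snord52, against 0.849% of all dim genes, and of the 25 others 4 rose, against 6.95%. With dim genes left out before the fit, 5 members rose, against 9.56% of the genes tested. The count of 6 rested on all arrays: it was 3, 2 and 3 without insulin 1, 2 or 3, and 3, 3 and 4 without control 1, 2 or 3.

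**Figure D1:**
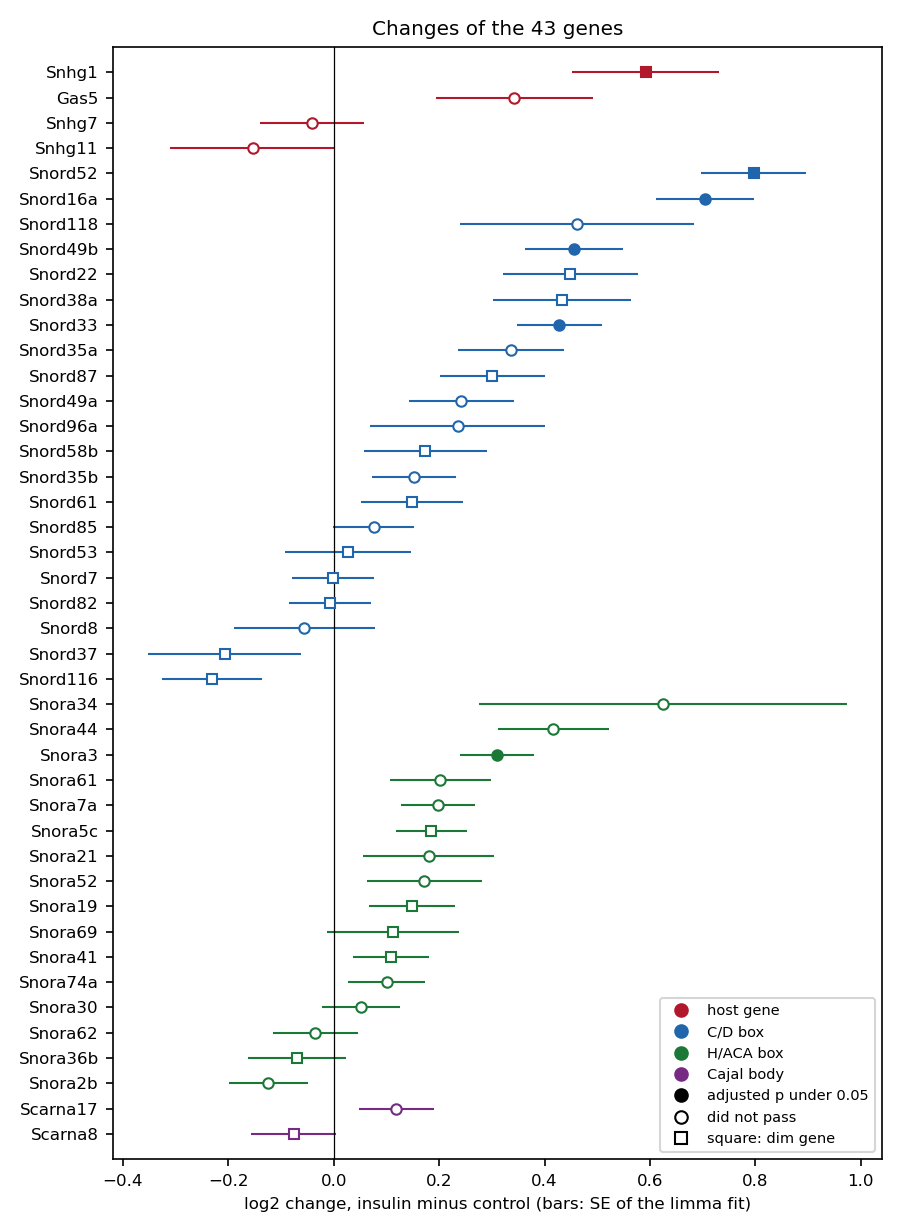
Log2 change, insulin minus control, of the 43 genes with the standard error of the limma fit, ordered by size within host genes, C/D box, H/ACA box and Cajal body RNAs. Filled symbols passed the test, squares are dim genes, and 32 of the 43 points lie above 0.

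Short RNAs are hard to measure on such an array. Of the 43 members 31 had 1 probe set, and the 94 probe sets held 72 distinct rows of values. For 5 of the 8 members with 2 probe sets, both held identical values on every array and added no second measurement. The labels describe amplification of 25 ng of total RNA before labelling and do not say whether strand was kept. A probe set for an intronic small RNA may also bind the host's unspliced RNA, and the values do not separate the mature small RNA from its precursor.

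Among the host genes, Snhg1 rose and Gas5 lay higher without passing. Snhg1, first described in mouse as the host gene of Snord22 and several other C/D box RNAs, had log2 values of 7.27, 7.02 and 6.72 on the insulin arrays, against 6.51, 6.28 and 6.45 on the control arrays. The groups did not overlap, and control 2 was lowest. The rise was 0.59 ± 0.14 (SE), or 1.51-fold, with a limma adjusted p of 0.0415. Snhg1 is dim, and the call was lost without insulin 1 (adjusted p = 0.103), insulin 2 (0.127), control 1 (0.0732), control 2 (0.127) or control 3 (0.0734). It was also lost with the replicate number as a block (0.0535) and with the brightest probe set (0.76, adjusted p = 0.168). All 5 of its probe sets were higher after insulin, by 0.27 to 0.76, and on 3 of them the groups did not overlap, as for 13.8% of all probe sets. None of the 5 passed limma's test on its own, and over all 212097 probe sets 1.29% did.

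Gas5, named for its accumulation when growth of mouse fibroblasts is arrested, had values of 11.77, 11.52 and 11.95 on the insulin arrays, against 11.64, 11.15 and 11.42 on the control arrays. The groups overlapped through control 1, and the change of 0.34 ± 0.15 (SE) did not pass (limma adjusted p = 0.228). All 11 of its probe sets were higher after insulin, by 0.24 to 0.86. Their mean levels ran from 3.98 to 13.55, and the largest change was on a probe set at 7.59. On 9 of the 11 the groups did not overlap, against 13.8% of all probe sets with the insulin arrays above. None of the 11 passed limma's test on its own, and all measure 1 gene on the same 6 arrays. With the mean of the 11 probe sets in place of their median the change was 0.38 and passed (adjusted p = 0.0116), as it did with the brighter probe sets (0.31, adjusted p = 0.0409) and with array quality weights (0.51, adjusted p = 0.0384). Those weights were 3.1 for control 2, the lowest Gas5 array, against 0.419 and 0.542 for the other controls, and without control 2 the change was 0.22. Gas5 passed in 3 of 16 alternatives and did not pass in the others, among them the brightest probe set (0.24, adjusted p = 0.172). The median is the value of 1 probe set, and that probe set is among those on which the groups overlapped.

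Snhg7 and Snhg11 lay slightly below 0 and did not pass. Snhg7, a further noncoding host, had values of 8.15, 8.14 and 8.12 on the insulin arrays, against 8.36, 8.19 and 7.99 on the control arrays. Its change was -0.04 ± 0.10 (SE, limma adjusted p = 0.861), and it turned to 0.05 without control 1. Snhg11, which is abundant in mouse neurons, had values of 7.51, 7.49 and 6.99 on the insulin arrays, against 7.67, 7.34 and 7.44 on the control arrays. Its change was -0.15 ± 0.16 (SE, limma adjusted p = 0.643), with insulin 3 lowest and a change of 0.02 without that array. All 7 probe sets of Snhg11 lay below 0, between -0.26 and -0.01.

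**Figure D2:**
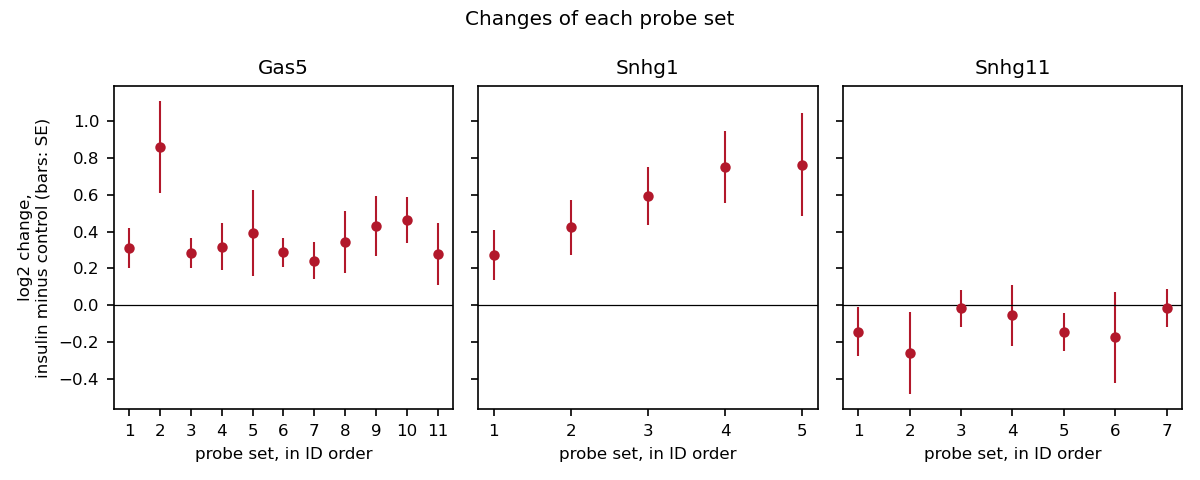
Log2 change, insulin minus control, of each probe set of Gas5, Snhg1 and Snhg11 with its standard error, in the order of the probe set IDs. The 11 Gas5 and 5 Snhg1 probe sets all lie above 0 and the 7 Snhg11 probe sets all lie below it.

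C/D box RNAs held 4 of the 6 calls. Of the 21 genes 4 rose, against 5.12% of all genes, 0 fell and 17 did not pass, with a median change of 0.24 and 16 changes above 0. On 10 of them all insulin arrays lay above all controls, against 15.5% of all genes. The largest change of all members was in Snord52, a methylation guide inside a noncoding gene, with values of 7.37, 7.14 and 7.02 on the insulin arrays, against 6.44, 6.40 and 6.31 on the control arrays. The groups lay well apart, and the rise was 0.80 ± 0.10 (SE), or 1.74-fold (limma adjusted p = 0.00482). It is dim, with 1 probe set.

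Snord16a, a guide inside an intron of the ribosomal protein gene Rpl4, had values of 7.92, 7.70 and 7.91 on the insulin arrays, against 7.18, 7.01 and 7.22 on the control arrays. It rose by 0.70 ± 0.09 (SE), or 1.63-fold (limma adjusted p = 0.00585). In the fit of genes, Snord52 and Snord16a were the members that passed with each of the 6 arrays left out in turn. In the fit of single probe sets they were the 2 called of the members' 94, against 0.975% of all probe sets called higher, and 0 were called with any array left out or with the replicate number as a block.

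Snord49b, which lies with Snord49a in a noncoding gene, had values of 8.61, 8.90 and 8.85 on the insulin arrays, against 8.29, 8.30 and 8.41 on the control arrays. It rose by 0.46 ± 0.09 (SE, limma adjusted p = 0.026). The call was lost without insulin 2 (adjusted p = 0.0999), insulin 3 (0.103), control 1 (0.0679) or control 2 (0.0902). Its neighbour Snord49a lay at 0.24 ± 0.10 with no overlap of the groups and did not pass (adjusted p = 0.207).

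Snord33 lies in an intron of Rpl13a, whose small RNAs have been tied in rodent cells to the response to lipid overload. It had values of 8.54, 8.69 and 8.55 on the insulin arrays, against 8.10, 8.27 and 8.12 on the control arrays. The rise was 0.43 ± 0.08 (SE, limma adjusted p = 0.0199), lost without insulin 1 (adjusted p = 0.0569), insulin 2 (0.0829), insulin 3 (0.0664) or control 1 (0.051). Snord35a of the same gene had values of 7.78, 8.05 and 7.74 on the insulin arrays, against 7.42, 7.61 and 7.53 on the control arrays. Its groups did not overlap, and the change of 0.34 ± 0.10 did not pass (limma adjusted p = 0.0892).

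**Figure D3:**
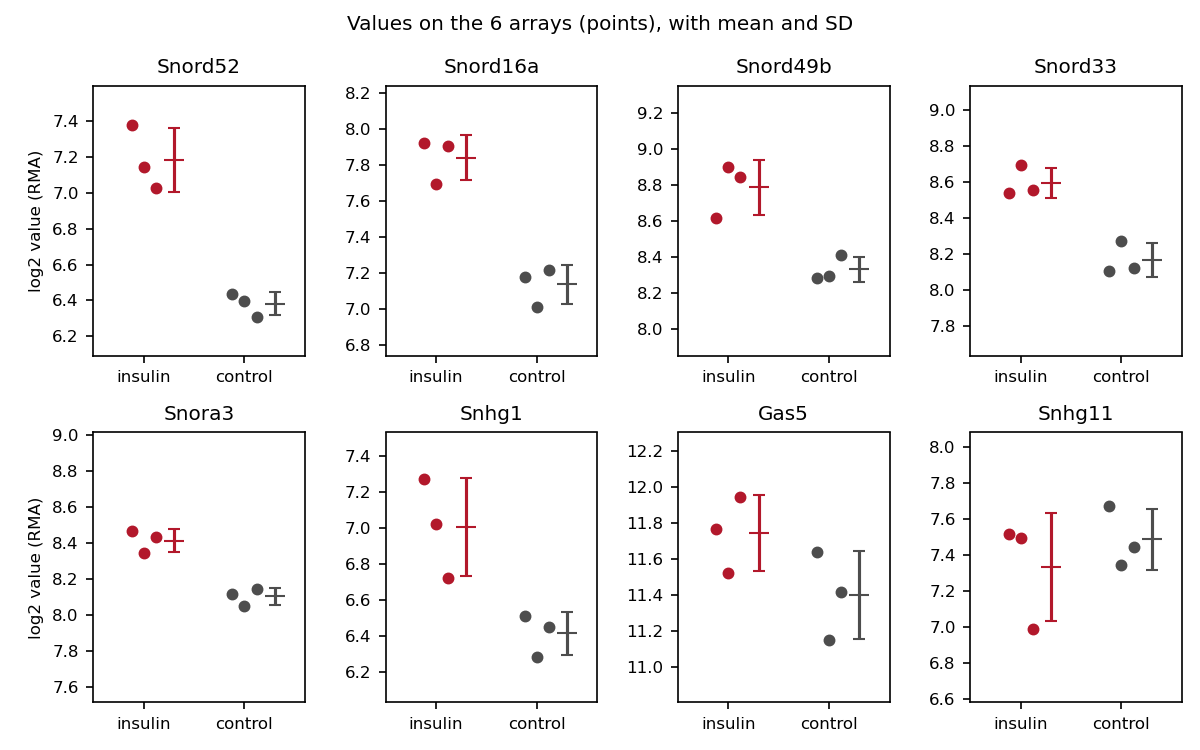
Log2 values on the 3 insulin and 3 control arrays for the 6 genes that passed and for Gas5 and Snhg11, with the mean and SD of each group beside the points. Every panel spans the same range of 1.5 on the log2 scale, and the groups are apart for the 6 called genes and overlap for Gas5 and Snhg11.

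Other C/D box RNAs came close to the threshold or stayed near 0. Snord22, which is needed in Xenopus oocytes to make the RNA of the small ribosomal subunit, had values of 7.29, 7.24 and 7.10 on the insulin arrays, against 7.05, 6.61 and 6.62 on the control arrays. Control 1 was the highest control, the change was 0.45 ± 0.13 (limma adjusted p = 0.0762), and it passed without control 1 (0.59, adjusted p = 0.0155). Snord38a lay at 0.43 ± 0.13 (adjusted p = 0.0912) and Snord87 at 0.30 ± 0.10 (adjusted p = 0.12), both dim and both without overlap.

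Snord118, the U8 RNA that takes part in making the large ribosomal subunit, is transcribed from its own promoter and lies inside no other RefSeq gene. Its values were 7.32, 7.73 and 7.80 on the insulin arrays, against 6.72, 7.14 and 7.61 on the control arrays. Both groups spread widely and overlapped (0.46 ± 0.22, limma adjusted p = 0.275), and the change ranged from 0.24 to 0.69 over the alternatives. Snord116, a cluster of near-identical copies whose loss is linked to Prader-Willi syndrome in humans, was the member on which all insulin arrays lay below all controls. Its values were 5.45, 5.38 and 5.51 on the insulin arrays, against 5.55, 5.62 and 5.86 on the control arrays. The gene is dim, 18 of its 24 probe sets held identical values, and the change of -0.23 ± 0.09 did not pass (limma adjusted p = 0.205) and was -0.14 without control 3. The remaining 10 C/D box RNAs lay between -0.21 for Snord37 and 0.24 for Snord96a.

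H/ACA box RNAs held 1 call, a share near that of all genes. Of the 16 genes 1 rose, against 5.12% of all genes, 0 fell and 15 did not pass, with a median change of 0.16 and 13 changes above 0. Snora3, in an intron of Rpl27a, had values of 8.47, 8.34 and 8.43 on the insulin arrays, against 8.12, 8.05 and 8.14 on the control arrays. It rose by 0.31 ± 0.07 (SE), or 1.24-fold (limma adjusted p = 0.0361). Its 2 probe sets lay at 0.32 and 0.30. They held close values on every array, such as 8.44 and 8.49 on insulin 1, and may not be separate measurements. The call was lost without any 1 of the arrays, with adjusted p = 0.123, 0.0806 and 0.125 without insulin 1, 2 or 3 and 0.0657, 0.124 and 0.0532 without control 1, 2 or 3. It was also lost with the replicate number as a block (0.0688) and with the brightest probe set (adjusted p = 0.0516).

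Snora44 and Snora61 share the host gene Snhg12, which is not analysed here. Snora44 had values of 7.54, 7.69 and 7.53 on the insulin arrays, against 7.28, 6.96 and 7.27 on the control arrays. The groups did not overlap, and the change of 0.42 ± 0.11 did not pass (limma adjusted p = 0.0536). It passed in 5 of 15 alternatives, among them array quality weights (adjusted p = 0.00869), which favour control 2, and dim genes left out (adjusted p = 0.0294). Without control 2, its lowest array, the change was 0.31 (adjusted p = 0.119), and with the replicate number as a block the adjusted p was 0.113. Snora61 lay at 0.20 ± 0.10, without overlap (adjusted p = 0.269), and at 0.11 without control 3.

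Snora34 had the largest change of this kind and the widest spread. Its values were 8.90, 9.60 and 9.39 on the insulin arrays, against 7.82, 8.97 and 9.22 on the control arrays. Control 1 lay far below the other controls, and the change was 0.63 ± 0.35 (limma adjusted p = 0.358). Without control 1 it was 0.20. Snora52 lay at 0.17 ± 0.11, Snora7a at 0.20 ± 0.07 and Snora74a at 0.10 ± 0.07, and the other 9 H/ACA box RNAs lay between -0.12 for Snora2b and 0.19 for Snora5c. Snora52 moved to 0.29 without insulin 1 and to 0.08 without insulin 2. The Cajal body RNAs did not pass either, with Scarna17 at 0.12 ± 0.07 (0.07 without control 3) and Scarna8, which is dim, at -0.08 ± 0.08.

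The changes of the small RNAs were set beside those of the genes that contain them. RefSeq places 38 of the 39 small RNAs inside the span of another gene, and its table gives no strand, so a containing gene is called so by position only. For 23 of the 38 the containing gene was measured, over 21 genes. Snord87 lies inside both Mcmdc2 and Snhg6, and only Mcmdc2, which is dim, was measured (0.004 ± 0.167). Snord8 likewise lies inside Chd8 and another gene, of which only Chd8 was measured. A containing gene may therefore not be the host. Over all 23 pairs the small RNA had the higher change in 13, and the median difference was 0.009. Within ribosomal protein and translation factor genes the small RNA had the higher change in 9 of 11 pairs, over 10 genes. The medians there were 0.17 for the small RNAs and 0.04 for the containing genes. This grouping was chosen after the values were seen. Snord37 (-0.207) in Eef2 (-0.046) and Snora62 (-0.035) in Rpsa (0.073) went the other way. The pairs described next are those whose small RNA passed, with Snord35a beside Snord33.

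Snord16a rose while Rpl4, a large-subunit protein gene, lay at 0.07 ± 0.06 (limma adjusted p = 0.583), with log2 values of 13.79 ± 0.03 on the insulin arrays and 13.71 ± 0.01 on the control arrays (SD, n = 3 each). Rpl13a, the gene around Snord33 and Snord35a, averaged 14.13 ± 0.04 on the insulin arrays and 14.09 ± 0.06 on the control arrays (SD, n = 3 each). Its change was 0.04 ± 0.07 (limma adjusted p = 0.804), and its 6 probe sets lay between 0.01 and 0.22. Rpl27a, around Snora3, lay at 0.05 ± 0.06 (adjusted p = 0.706). These containing genes lie close to the top of the scale, where the highest of all deposited values is 14.6. Whether their changes were compressed there was not tested.

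Within other protein-coding genes the small RNA had the higher change in 4 of 11 pairs, with a median of 0.03 for the small RNAs and 0.23 for the containing genes. Ncl, encoding nucleolin, rose by 0.36 ± 0.08 (SE, limma adjusted p = 0.0274), while Snord82 within it lay at -0.01 ± 0.08. Rbmx, an RNA-binding protein gene, rose by 0.48 ± 0.09 (adjusted p = 0.0215) and held Snord61 at 0.15 ± 0.10. Wdr43, a ribosome assembly gene, rose by 0.32 ± 0.08 (adjusted p = 0.0428) and held Snord53 at 0.03 ± 0.12. Tbrg4 rose by 0.42 ± 0.09 (adjusted p = 0.0254) and held Snora5c at 0.19 ± 0.07. These 4 pairs are those whose containing gene passed, and the 4 small RNAs are all dim. Snora34 and Snord87 went the other way, above their containing genes by 0.672 and 0.297. Snora36b and Snord8 did so by 0.009 and 0.007. Of all 12 small RNAs placed in such genes, measured or not, 7 are dim, against 6 of 16 in ribosomal protein or translation factor genes. The difference between a small RNA and its containing gene was not tested in any pair, and a small RNA's level was not set against its host's because their probes differ. Snord22 at 0.45 and Snhg1 at 0.59 lay close together.

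**Figure D4:**
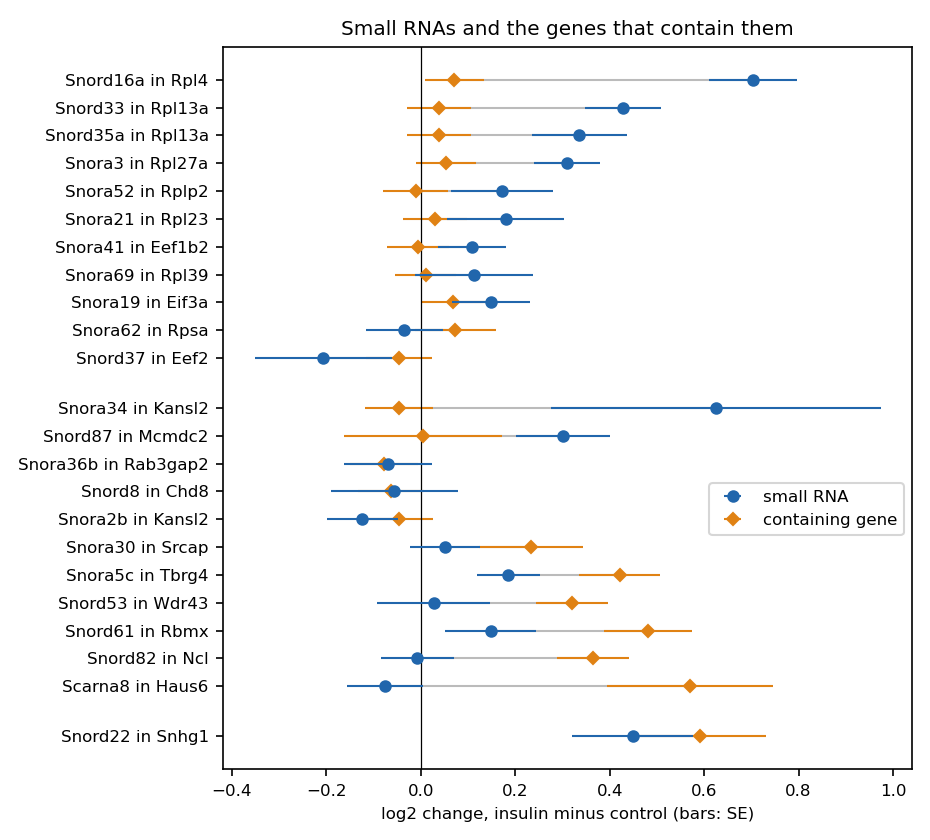
Log2 change, insulin minus control, of 23 small RNAs (circles) and of the genes that contain them (diamonds), with standard errors, in blocks of ribosomal protein and translation factor genes, other protein-coding genes and Snhg1. In the first block 9 of 11 circles lie to the right of their diamond, and in the middle block 4 of 11 do.

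Some genes of the same family stand on the array under older names and were not members. Snhg16, listed as 1810032O08Rik and host of Snord1 RNAs, had values of 10.15, 9.90 and 9.94 on the insulin arrays, against 9.07, 8.87 and 8.84 on the control arrays. It rose by 1.06 ± 0.10 (SE), or 2.09-fold (limma adjusted p = 0.00168), more than any member. Its 5 probe sets lay between 0.17 and 1.37, 4 of them without overlap, and 3 passed on their own. The alternatives are not reported for Snhg16 and Snhg5. Snhg5, listed as 2810026P18Rik, rose by 0.61 ± 0.09 (adjusted p = 0.00778). All 5 of its probe sets were higher without overlap, as were 13.8% of all probe sets, and 1 passed on its own. Snhg20 (2810008D09Rik) at 0.33 and Snhg17 (9430008C03Rik) at 0.19 did not pass. Their groups did not overlap, with the insulin arrays above as for 15.5% of all genes. Of the 3 probe sets of Snhg17, 2 were without overlap. Snord15a (Gm5774), Snord15b (Gm5775) and Snord73a (Rnu73a) lay between -0.02 and 0.03.

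Of the 69 measured genes that contain any named small RNA in RefSeq, 15 rose, 0 fell and 54 did not pass, against 5.12% of all genes higher and 3.09% lower. Only 3 of the 69 are dim, and 6.95% of all genes that are not dim were called higher. The 15 are not a separate result: they include Snhg1, Snhg16, Ncl, Rbmx, Wdr43 and Tbrg4 from above and Nop56 and Nop58 from below. The 18 ribosomal protein genes among them had a median of 0.04 with 1 rise, and the other 51 had a median of 0.13 with 14 rises. The ribosomal protein gene that rose was Rpl23a (0.69), which had 1 probe set, at a mean level of 8.37. At an unadjusted p under 0.05, limma put 22 of the 69 higher and 3 lower, against 12.3% and 9.99% of all genes.

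Several protein genes of small RNA assembly rose. Of the 8 core proteins 4 rose, 0 fell and 4 did not pass, with a median of 0.33. None of the 8 is dim, and 6.95% of all genes that are not dim were called higher. Dkc1, the pseudouridine synthase of H/ACA particles, averaged 10.92 ± 0.06 on the insulin arrays and 10.02 ± 0.05 on the control arrays (SD, n = 3 each), a rise of 0.90 ± 0.07 (SE, limma adjusted p = 0.000848). Its partner Gar1 rose by 0.58 ± 0.10 (adjusted p = 0.0131), while Nhp2 (0.27, adjusted p = 0.0612) and Nop10 (0.03, adjusted p = 0.867) did not pass. In the C/D particle the scaffold genes Nop56 and Nop58 rose by 0.50 ± 0.07 (adjusted p = 0.00667) and 0.40 ± 0.06 (adjusted p = 0.0124). Nhp2l1, which binds the C/D motif, lay at 0.27 (adjusted p = 0.0882) and Fbl, the methyltransferase fibrillarin, at 0.03 (adjusted p = 0.869).

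Among 15 measured assembly and Cajal body genes 3 rose and 0 fell, with a median of 0.14. They were Ruvbl2 (0.49), an ATPase of particle assembly, Rrp9 (0.41), a protein of the U3 particle, and Wrap53 (0.40), which brings Scarna RNAs to Cajal bodies. Of 13 processing genes 3 rose and 0 fell, with a median of 0.14: the exosome nuclease Dis3 (0.57), the exosome cofactor Mphosph6 (0.51) and the exosome subunit Exosc2 (0.34). Dbr1, which opens intron lariats, lay at 0.49 ± 0.17 and did not pass (limma adjusted p = 0.137). In all 6 lists together 12 of 52 genes rose and 0 fell, with 20 higher and 2 lower at an unadjusted p under 0.05 by limma. None of the 52 is dim, and 6.95% of all genes that are not dim were called higher. At the unadjusted limit 12.3% of all genes were higher and 9.99% lower. The number called was 4, 4 and 5 without insulin 1, 2 or 3, and 6 without control 2.

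Nonsense-mediated decay genes gave 1 rise among 7 measured, in Smg9 (1500002O20Rik, 0.34), and a median of 0.10. Upf1, the helicase at the centre of that pathway, lay at 0.10 (limma adjusted p = 0.672). Genes of TOP mRNA control gave 1 rise among 9, in Tial1 (0.47), with a median of 0.04. In lists this short, 1 call lies near the 6.95% of all genes not dim that were called higher. Mtor itself lay at -0.33 (adjusted p = 0.0662) and Larp1, which binds TOP starts, at 0.15 (adjusted p = 0.554).

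**Figure D5:**
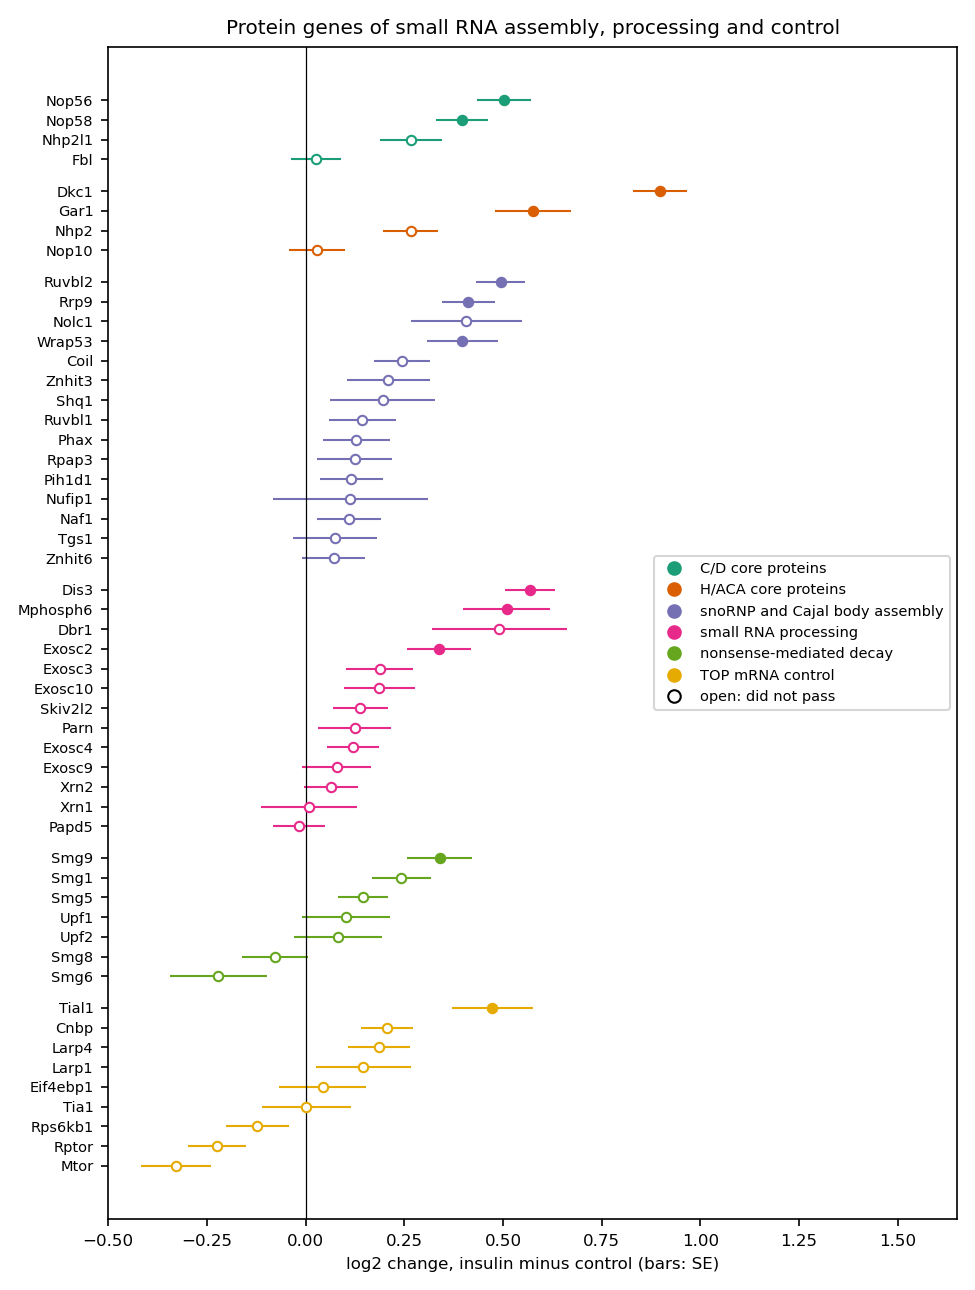
Log2 change, insulin minus control, with standard error, of 52 protein genes in 6 lists of small RNA assembly, processing, decay and TOP control. Filled points passed the test: 12 lie above 0 and none below.

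Of the cell type markers 1 rose and 1 fell, and 8.21% of all genes were called in either direction. All 8 myotube markers lay below 0, with a median of -0.23, and Ckm, the muscle creatine kinase, fell by 0.30 (limma adjusted p = 0.0468). Their summed level lay between 16.16 and 16.20 on the insulin arrays and between 16.36 and 16.45 on the control arrays, on the log2 scale. Of 19 markers of fibroblasts, adipocytes, endothelial cells, macrophages and neurons 1 passed, the neuronal tubulin gene Tubb3, which rose by 0.53 (adjusted p = 0.00529) while Syp and Snap25 lay at 0.10 and -0.10. The summed level of the 3 neuron markers, nearly all of it from Tubb3, lay between 13.11 and 13.17 on the insulin arrays and between 12.56 and 12.69 on the control arrays. The summed levels of the fibroblast, adipocyte, endothelial and macrophage markers overlapped between the groups, and 8 of the 19 markers were dim. The part of these differences in the small RNA changes was not tested.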

How the data were processed

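The deposited table holds 1 log2 value per probe set and array for 241576 probe sets and 6 arrays, made by RMA per the submitters' processing notes, which give no version. The sources used here name no log base, which was inferred from the range of 3.15 to 14.6. Array medians lay between 8.79 and 8.82, and precision is limited by there being 3 arrays a group. Batches were not analysed here.

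A gene's value was the median of its probe sets with exactly 1 symbol in GEO's platform annotation. The difference, insulin minus control, came from limma 3.58.1 in R 4.3.3 (lmFit and eBayes, two-sided, no covariates, no level filter), adjusted by Benjamini-Hochberg over all genes. The fit was first tested on simulated data. It recovered 38% of the genes shifted by 0.5 on the log2 scale and 89% of those shifted by 1.0, with 8 false calls. The members, gene lists and tests were chosen with earlier results of these data known, and the lists were compiled from general knowledge. Named were all host genes, small RNAs that passed, the 6 of highest level, those inside a Snhg gene or Gas5, the core proteins, and list genes that passed. Others were named after their values were seen. Present symbols, containing genes and start sequences came from RefSeq (GRCm38.p6), where all 43 members matched. As no strand is listed there, the planned same-strand rule for hosts was applied by position alone. Probe sets listed for several symbols (6 with a small nucleolar RNA symbol, none of them a member) were kept out. Alternatives covered normalization, filters, variance prior, array weights, probe set summary, the replicate number as a block and leaving out each array. The gene that contains 1 of the small RNAs is not reported here.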

Additional observations from a re-analysis of the deposited data

Results flagged for a closer look

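The probe set listed for both Snora65 and Rpl12 was kept out of the comparisons because it has 2 symbols, and its signal was higher after insulin. It had log2 values of 9.04, 8.84 and 8.72 on the insulin arrays, against 8.48, 8.37 and 8.45 on the control arrays, a difference of 0.436 without overlap. The difference was not tested, and 13.8% of all probe sets with 1 symbol lay above the controls in the same way. Of the 6 probe sets listed for a small nucleolar RNA together with another symbol, it was the 1 without overlap, and 2 of the others held identical values.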

How the results depend on the processing

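No member was called lower under any of the 16 alternatives, and the median change of all genes stayed between -0.03 and 0.01. In the fit of genes, Snord52 and Snord16a passed wherever they were tested; filters at the 30th or 50th percentile take Snord52 out as dim, and the stricter one also takes out Snord16a. Against 6 members called higher, the stricter filter gave 2, averaging probe sets 11 and leaving out an array 2 to 4. The stricter filter removes Snord52, Snord16a, Snora3 and Snhg1 before the fit, and Snord33 and Snord49b passed under it. Against 1676 genes called in all, there were 1024 with a replicate block, 1065 with the brightest probe set, 2979 with the mean of probe sets, 3164 with array quality weights and 602 to 1562 without an array. The 12 machinery calls became 4 to 9 without an array. Against 2 member probe sets called, there were 0 with a replicate block or without any array, 1 with the 30th percentile filter and 4 with an intensity trend and robust prior. The median of small RNA minus containing gene, 0.009 over 23 pairs, was 0.024 after repeated quantile normalization, 0.070 with array weights, 0.033 with the brightest probe set, 0.182 and 0.389 with the filters, where fewer pairs are left, and -0.022 to 0.074 without an array. Leaving out an array moved Snhg11 between -0.247 and 0.018, above 0 without insulin 3, and Snhg7 between -0.136 and 0.048, above 0 without control 1. Same-numbered arrays had deviations from their group means that correlated at -0.015, 0.152 and -0.013. The other pairs of an insulin and a control array lay between -0.096 and 0.085. With 3 arrays a group, these values cannot show whether the replicate number pairs the arrays. With the replicate number as a block, Snhg1 (limma adjusted p = 0.0535) and Snora3 (0.0688) did not pass. Other causes were not tested.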
